A study of Mus musculus with 6 samples.

Results

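The genes described here encode the proteins of the small (40S) subunit of the cytosolic ribosome, and their mRNAs were compared between arsenite-treated and control mouse embryos at the 2-cell stage. Members were taken by symbol (Rpsa, Fau and every Rps number with no suffix or the suffix a, a1, x or l), which gave 34 of the 18660 rows in the count table, with Rps4l, a transcribed pseudogene in RefSeq, among them. Libraries of poly(A) RNA came from embryos cultured in G1-PLUS medium to which sodium arsenite, a salt of trivalent arsenic, was added at 5 µM (3 libraries), and from control embryos labelled 0 µM (3 libraries). Strain, number of embryos and length of exposure are not given in the labels. Nor is it stated whether replicates came from different cultures, and p-values therefore cover no more than the spread of these libraries, which may be technical.

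The small subunit binds the mRNA, scans it for the start codon and holds the decoding site, and its proteins sit in a head, and in a body with a platform, around the 18S ribosomal RNA. In mammals the mRNAs of ribosomal proteins carry a pyrimidine tract at the very 5′ end (a TOP tract), through which mTORC1 signalling and the RNA-binding protein LARP1 control their translation and stability. Mouse embryos inherit ribosomes and ribosomal protein mRNA from the egg and take up synthesis of new ribosomes as their own genome becomes active, around the 2-cell stage. The comparison described here is of transcript levels with and without arsenite at that stage.

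Of the 34 small subunit genes 8 fell with arsenite and 0 rose (edgeR, quasi-likelihood test over 12582 genes, adjusted p under 0.05 after Benjamini and Hochberg), which is 23.5% of members against 7.26% of all genes tested on the lower side and 0 against 9.43% on the higher side. All 34 passed the filter on low counts. The log2 fold change of arsenite over control was below 0 for 33 of them, against 47.8% of all genes, with a median of −1.09 for the members and 0.07 for all genes. Library by library, the 3 arsenite values lay entirely below the 3 control values for 15 members (44.1%), against 19.7% of all genes, and overlapped for the other 19. Values are CPM, read counts scaled to a common library size with TMM factors, so a lower value is a lower share of the library, and less RNA per embryo and a larger amount of other RNA cannot be told apart. Scaling by library size alone moved the median of all genes to −0.05 and that of the members to −1.25, so the members' direction was the same under both scalings.

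Libraries of 1 group differed from each other in these genes as a block. In 31 of 34 members arsenite replicate 3 was the highest and arsenite replicate 2 the lowest of the arsenite libraries, and control replicate 3 was the highest control in 31 members. The median log2 ratio of the members to their control mean was −1.35, −2.26 and −0.36 in arsenite replicates 1, 2 and 3, and −0.25, −0.39 and 0.47 in control replicates 1, 2 and 3. Arsenite replicate 3 therefore stood nearer to the controls than the other arsenite libraries did. Without it 24 members fell (70.6%, against 4.82% of all genes), with a median of −1.72. Without arsenite replicate 1 the call held for 2 members (1.35% of all genes were then called lower) and without arsenite replicate 2 for 4 (8.16% of all genes). Without control replicates 1, 2 and 3 it held for 2, 3 and 2 members (3.05%, 3.57% and 1.41% of all genes). Other methods on all 6 libraries called 13 members lower with no count filter (5.54% of all genes), 15 with DESeq2 (10.3%) and 13 with limma voom (8.63%).

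Libraries with the same replicate number deviated together weakly across all genes (correlations of 0.189, 0.221 and 0.178 for numbers 1, 2 and 3). The labels do not state a pairing, so it was read from these same counts, and p-values with the block depend on it. Setting each arsenite library against the control of its number gave the same direction. Within pairs 1, 2 and 3 the arsenite value was the lower for 33, 34 and 32 of 34 members, with median log2 ratios of −1.09, −1.97 and −0.73 (all genes 0.02, 0.02 and 0.07), and for 49.3%, 49.3% and 47.8% of all genes. With the replicate number as a block in the edgeR fit 25 members fell and 0 rose (73.5%, against 12.6% of all genes on the lower side), and with the block and the length and GC trend removed 26 fell (14.5% of all genes). The 9 without a call with the block alone were Fau, Rps2, Rps12, Rps15a, Rps21, Rps27, Rps27l, Rps28 and Rps29.

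**Figure D1:**
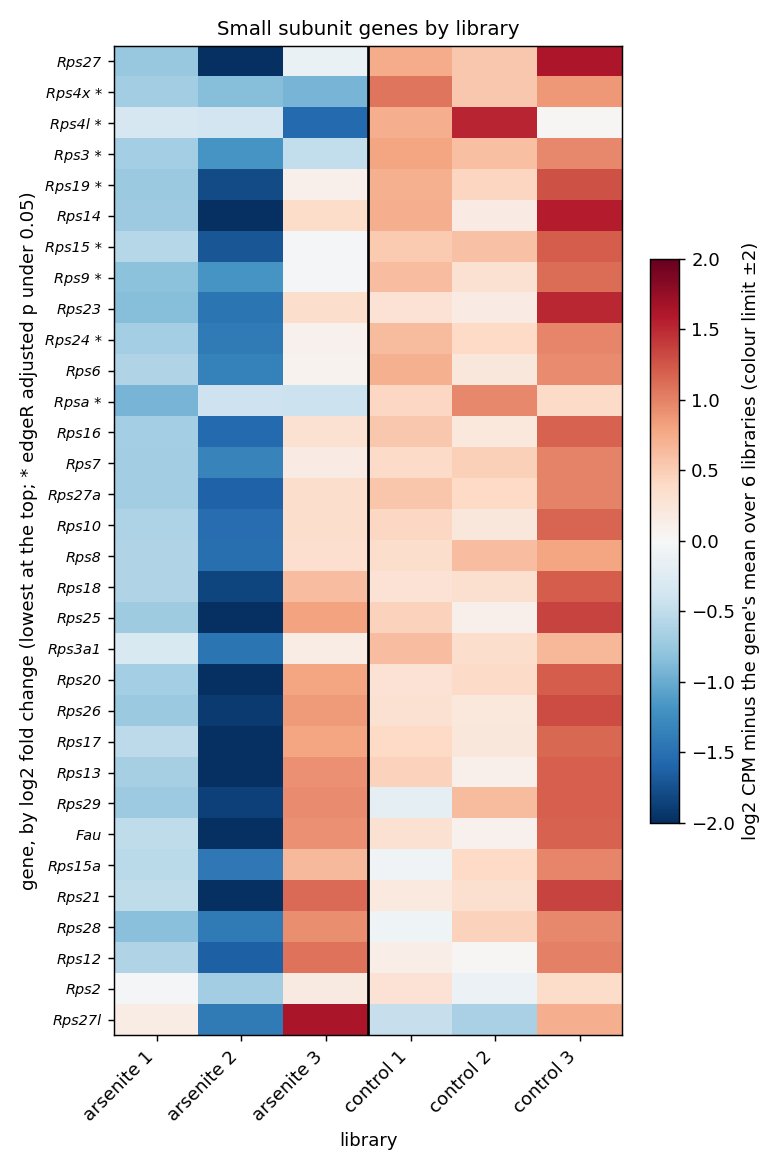
Log2 CPM of 32 of the 34 small subunit genes (rows, lowest log2 fold change at the top, asterisks for an edgeR adjusted p under 0.05) in each library (columns), as the difference from the gene's mean over the 6 libraries. Arsenite replicate 2 is the bluest column and arsenite replicate 3 the palest of the arsenite columns, and Rps27l, in the bottom row, is the only member with a log2 fold change above 0.

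As a share of all counts, the small subunit genes took 0.394%, 0.226% and 0.713% in arsenite replicates 1, 2 and 3, against 0.855%, 0.864% and 1.26% in control replicates 1, 2 and 3. No arsenite library reached the lowest control. The mean was 0.444 ± 0.247% with arsenite and 0.994 ± 0.234% in controls (SD, n = 3 each). Small subunit genes made up 43.4 ± 5.13% of all counts for cytosolic ribosomal proteins with arsenite and 43.5 ± 2.38% in controls (SD, n = 3 each), a difference smaller than either SD. Ribosomal protein mRNAs are short. Among the 4882 genes with an annotated transcript under 1500 bases, the 30 members included took 1.58%, 1.03% and 2.41% of counts in arsenite replicates 1, 2 and 3 and 3.53%, 2.89% and 4.65% in control replicates 1, 2 and 3, again without overlap. In a fit with the trend on transcript length and GC content removed from each library, chosen after the data were seen, 11 members fell and 0 rose (32.4%, against 10.3% of all genes on the lower side), with a median of −0.98.

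Promoter sequences from RefSeq (GRCm38.p6, 250 bases before to 50 after an annotated start) were at hand for 25 members. A TOP-like tract, here a C at the annotated start followed by at least 4 bases that are each C or T, was found on the gene's strand in 7 of them (28.0%), against 8 of 40 large subunit genes (20%) and 3.01% of 27025 genes with a sequence. Allowing the tract to begin up to 5 bases to either side, 13 members had it (52.0%), against 21.2% of all genes. The letters CCGGAAG, searched on both strands of the 250 bases before the start, were found in 10 members (40.0%). That compares with 9 of 40 large subunit genes (22.5%), 15.5% of the tested genes and 7.83% of all genes with a sequence. TATAAA was found in 1 member (4%), against 4 of 40 large subunit genes (10%), 8.60% of the tested genes and 14.3% of all. Of the 7 members with a tract at the start 0 fell (median log2 fold change −0.95), and of the 12 with none within 5 bases 5 fell (median −1.14), against 7.26% of all genes. With the replicate block some of the 7 passed, such as Rps6 and Rps10 (edgeR adjusted p = 0.00855 and 0.0144). Fau, Rps27, Rps15a and Rps21 did not (edgeR adjusted p = 0.0514, 0.0756, 0.08815 and 0.0884). Of the 12 with none within 5 bases, all but Rps12 and Rps28 passed with the block (0.151 and 0.112 for these), against 12.6% of all genes. A difference between members with and without the tract was not tested. Annotated starts need not be those used in the embryo, so these matches are descriptions of the letters only. Windows of 50 bases, 30 before and 20 from the start on, are shown for 4 members with the tract (capitals), for Rps27l, whose tract begins 1 base further on, and for Rps3 and Rps4x, the members called in every fit, which have none.
Fau, chr19:6057917-6057966, plus strand: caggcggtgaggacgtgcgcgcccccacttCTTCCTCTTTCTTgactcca
Rps6, chr4:86857348-86857397, minus strand: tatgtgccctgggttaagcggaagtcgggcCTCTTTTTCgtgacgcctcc
Rps10, chr17:27635225-27635274, minus strand: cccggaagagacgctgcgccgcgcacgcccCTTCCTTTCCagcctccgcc
Rps27, chr3:90213629-90213678, minus strand: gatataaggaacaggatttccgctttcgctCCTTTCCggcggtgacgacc
Rps27l, chr9:66946056-66946105, plus strand: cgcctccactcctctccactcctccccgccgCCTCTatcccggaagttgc
Rps3, chr7:99483690-99483739, minus strand: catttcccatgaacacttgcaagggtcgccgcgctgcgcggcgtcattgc
Rps4x, chrX:102189372-102189421, minus strand: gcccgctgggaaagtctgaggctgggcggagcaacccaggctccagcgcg

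Rps4x and Rps3 kept their call in all 15 alternative fits, including each that left out a library. Rps4x encodes the X-linked copy of eS4, a protein of the body (chromosome X, 102184941 to 102189391, GRCm38). It had 105, 94.5 and 89.2 CPM in arsenite replicates 1, 2 and 3, against 356, 248 and 309 CPM in control replicates 1, 2 and 3. The arsenite libraries lay close together and far below every control. Its log2 fold change was −1.66 ± 0.28 (SE, adjusted p by edgeR = 0.00662), a level 3.16-fold higher in controls, and the adjusted p ran from 0.0115 to 0.0373 with a library left out. Rps3, a head protein at the mRNA entry channel that is ubiquitinated on stalled ribosomes (chromosome 7, 99477896 to 99483709), had 153, 108 and 173 CPM with arsenite and 419.7, 372 and 473 CPM in controls. Again the groups did not overlap. It fell by 1.54 ± 0.29 log2 units (SE, adjusted p by edgeR = 0.00961), with an adjusted p of 0.0146 to 0.0448 with a library left out.

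The other head proteins that fell were Rps19 and Rps15. Rps19 (chromosome 7, 24884592 to 24889811), whose human counterpart is the gene most often mutated in Diamond-Blackfan anaemia, had 155, 75.5 and 279 CPM in arsenite replicates 1, 2 and 3, against 427, 351 and 629 CPM in control replicates 1, 2 and 3. It fell by 1.47 ± 0.44 log2 units (SE, adjusted p by edgeR = 0.0456). The groups did not overlap, though arsenite replicate 3 came close to control replicate 2. Rps15, which lies near the decoding site and is needed for export of the subunit from the nucleus (chromosome 10, 80292431 to 80294114), had 72.5, 33.0 and 105 CPM with arsenite and 156, 161 and 249 CPM in controls. It fell by 1.43 ± 0.41 log2 units (SE, adjusted p by edgeR = 0.0401), also without overlap. Both lost their calls without arsenite replicate 1 (edgeR adjusted p = 0.131 for Rps19 and 0.108 for Rps15) and without control replicates 1 (0.0771 and 0.0638), 2 (0.061 and 0.0656) or 3 (0.12 and 0.116), and Rps19 also without arsenite replicate 2 (0.0541) and with the length and GC trend removed (0.063).

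In the body and platform Rps9, Rps24, Rpsa and Rps4l fell as well. Rps9, which lines the mRNA entry channel (chromosome 7, 3703954 to 3706897), had 137, 107 and 236 CPM in arsenite replicates 1, 2 and 3 and 369.9, 297 and 522 CPM in control replicates 1, 2 and 3, a log2 fold change of −1.31 ± 0.36 (SE, adjusted p by edgeR = 0.0345). Rps24, another Diamond-Blackfan anaemia gene in human (chromosome 14, 24490678 to 24496960), had 126, 75.6 and 216 CPM with arsenite and 314, 266 and 396 CPM in controls, a log2 fold change of −1.23 ± 0.38 (SE, adjusted p by edgeR = 0.0499). In both genes the highest arsenite value, in replicate 3, stayed under the lowest control, in replicate 2. Without arsenite replicates 1 and 2 and control replicates 1 and 3 their calls were lost, with edgeR adjusted p of 0.114, 0.0534, 0.0627 and 0.102 for Rps9 and 0.141, 0.0652, 0.0869 and 0.122 for Rps24, which also lost its call without control replicate 2 (0.0671).

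Rpsa, at the back of the platform and also known as the laminin receptor (chromosome 9, 120127766 to 120132369), broke the common order of the libraries. It had 52.5, 75.1 and 74.3 CPM in arsenite replicates 1, 2 and 3, against 132, 194 and 129.9 CPM in control replicates 1, 2 and 3. Replicate 2, lowest for most members, was the highest library of its group here. Rpsa fell by 1.18 ± 0.31 log2 units (SE, adjusted p by edgeR = 0.0286), and lost its call without arsenite replicate 1 or control replicates 1, 2 or 3 (edgeR adjusted p = 0.112, 0.0512, 0.076 and 0.0628).

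**Figure D2:**
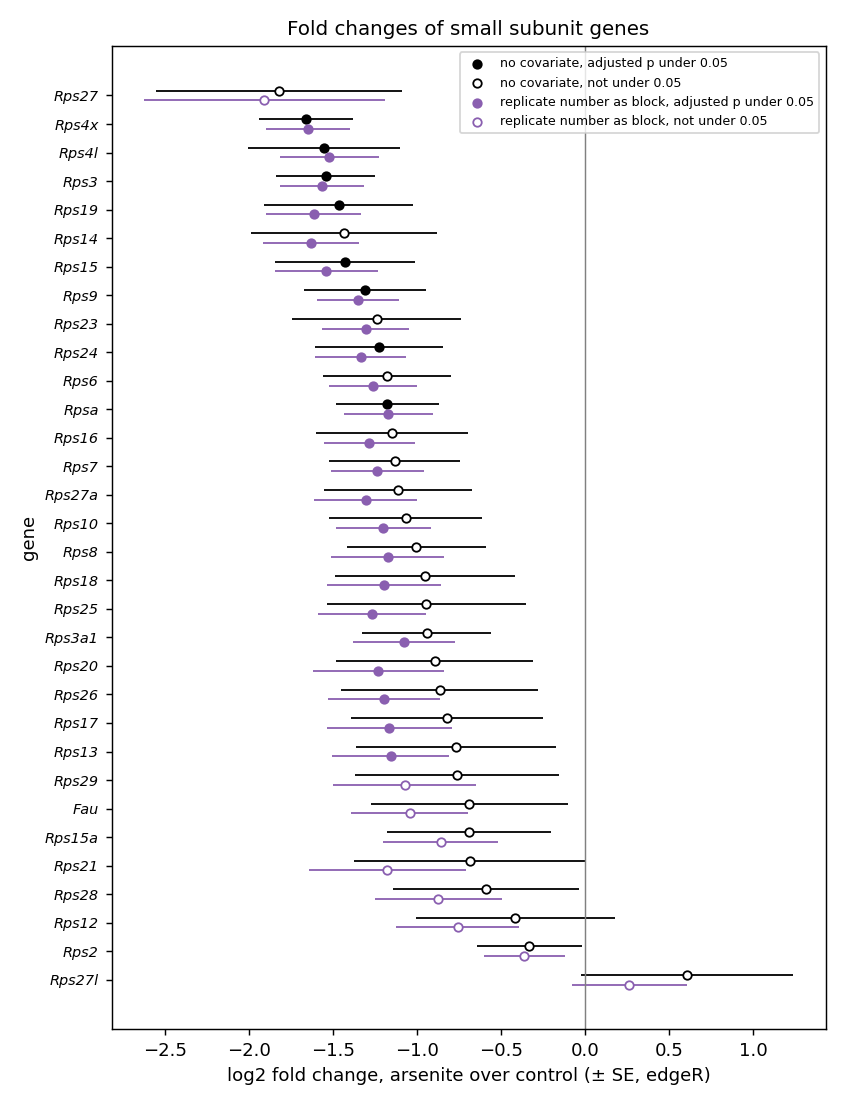
Log2 fold change of arsenite over control (x axis, bars are SE) for 32 of the 34 small subunit genes (y axis), from the edgeR fit with no covariate (black) and with the replicate number as a block (purple), filled where the adjusted p is under 0.05. All but Rps27l lie below 0 in both fits, with 8 filled points in the first and 23 in the second.

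The 26 members that did not pass had log2 fold changes between −1.82 (Rps27) and 0.61 (Rps27l), with edgeR adjusted p from 0.0562 to 0.657. Near the threshold were Rps6, the target of the S6 kinases downstream of mTORC1, at −1.18 ± 0.38 (SE, adjusted p by edgeR = 0.0562), and Rps7 of the body at −1.13 ± 0.39 (0.0673). Both had groups that did not overlap and passed with the block (edgeR adjusted p = 0.00855 and 0.0116). Of the 14 genes for head proteins 3 fell (21.4%, median −1.01) and of the 20 assigned to the body and platform 5 fell (25%, median −1.15), against 7.26% of all genes. The pseudogene Rps4l is counted among the 20 and among these 5. With the block 11 and 14 fell, against 12.6% of all genes.

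Rps14, a platform protein whose loss underlies the anaemia of the human 5q- syndrome, had 152, 59.8 and 326 CPM in arsenite replicates 1, 2 and 3, against 417, 283 and 750.2 CPM in control replicates 1, 2 and 3. It was chosen after its values were seen, as the member with the lowest log2 fold change (−1.43 ± 0.55, SE) among those whose groups overlapped. Its edgeR adjusted p was 0.0955, and 0.0045 with the block. The head proteins Rps10 and Rps20, which the ligase ZNF598 ubiquitinates on collided ribosomes, had log2 fold changes of −1.07 ± 0.45 and −0.90 ± 0.58 (SE, adjusted p by edgeR = 0.125 and 0.303), and 0.0144 and 0.0432 with the block.

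Both ribosomal proteins made as fusions with a ubiquitin-like domain had arsenite means below the control means without a call. Rps27a, which encodes ubiquitin joined to a head protein, had 117, 61.4 and 239.6 CPM in arsenite replicates 1, 2 and 3, against 278, 249 and 375 CPM in control replicates 1, 2 and 3. Its groups did not overlap, with a log2 fold change of −1.11 ± 0.44 (SE, adjusted p by edgeR = 0.103, and 0.0141 with the block). Fau, which joins a ubiquitin-like domain to eS30, had 180.3, 64.7 and 483 CPM with arsenite and 318, 271 and 583 CPM in controls. Arsenite replicate 3 exceeded control replicates 1 and 2, and the log2 fold change was −0.69 ± 0.59 (SE, adjusted p by edgeR = 0.434, and 0.0514 with the block).

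Rps2 and Rps12 were the members below 0 that differed least. Rps2, of the mRNA entry channel, had 312, 198 and 364 CPM in arsenite replicates 1, 2 and 3, against 392, 295 and 413 CPM in control replicates 1, 2 and 3. Groups overlapped, and the log2 fold change of −0.33 ± 0.31 (SE, adjusted p by edgeR = 0.479) was 0.02 with the length and GC trend removed and the replicate block. Rps12, of the beak of the head, had 26.4, 12.9 and 84.7 CPM with arsenite and 43.8, 40.5 and 80.7 CPM in controls, with arsenite replicate 3 the highest library of all 6. Its log2 fold change was −0.41 ± 0.59 (SE, adjusted p by edgeR = 0.657), and −1.48 without arsenite replicate 3.

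Rps27l was the 1 member with a log2 fold change above 0. It is a paralog of Rps27, both encoding zinc-finger proteins of the body, and in human and mouse cells it is known as a target of p53 (chromosome 9, 66944624 to 66949522). Rps27l had 271, 91.2 and 759 CPM in arsenite replicates 1, 2 and 3, against 178, 156 and 403 CPM in control replicates 1, 2 and 3. Arsenite replicate 3 was the highest and arsenite replicate 2 the lowest of all 6 libraries, so the groups overlapped. The log2 fold change was 0.61 ± 0.63 (SE, adjusted p by edgeR = 0.53), with no call in any of the 15 alternative fits, and −0.44 without arsenite replicate 3. Relative to the other members its position was higher with arsenite. Rps27l held 6.51%, 4.21% and 9.40% of the counts of all 34 members in arsenite replicates 1, 2 and 3, against 2.03%, 2.06% and 3.22% in control replicates 1, 2 and 3. These shares did not overlap, and as shares they also rise where the other members' counts are lower.

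Rps27 (chromosome 3, 90212667 to 90213648) had the lowest log2 fold change of the members, −1.82 ± 0.73 (SE), without a call (edgeR adjusted p = 0.107). It rested on few reads, 17, 8 and 23 counts in arsenite replicates 1, 2 and 3, against 51, 48 and 92 counts in control replicates 1, 2 and 3. There were 125, 99.9 and 226 Rps27l counts per Rps27 count in arsenite replicates 1, 2 and 3, and 29.0, 29.1 and 35.96 in control replicates 1, 2 and 3. The ratio did not overlap between groups, a log2 difference of 2.18 (exact two-sided permutation p = 0.1, the smallest that 3 libraries against 3 can give). All 106 windows of 150 bases in the Rps27 coding sequence occur unchanged in transcripts of 2 other annotated genes, 1 of them a pseudogene, and none of the 106 in Rps27l occurs elsewhere. How the authors counted reads with several positions is not stated in the labels or notes, so the level of Rps27 is uncertain. The coding sequences of the pair, from GENCODE M21 transcripts, are shown because they tell how far reads of the paralogs can be separated. Capitals mark the 61 of 255 bases at which they differ, an identity of 76.1%.
Rps27l: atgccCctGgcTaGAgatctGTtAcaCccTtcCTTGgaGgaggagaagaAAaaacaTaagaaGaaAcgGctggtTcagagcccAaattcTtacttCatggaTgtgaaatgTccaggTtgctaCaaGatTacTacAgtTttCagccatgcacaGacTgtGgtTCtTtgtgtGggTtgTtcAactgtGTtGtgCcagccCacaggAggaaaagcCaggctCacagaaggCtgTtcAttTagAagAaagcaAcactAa
Rps27: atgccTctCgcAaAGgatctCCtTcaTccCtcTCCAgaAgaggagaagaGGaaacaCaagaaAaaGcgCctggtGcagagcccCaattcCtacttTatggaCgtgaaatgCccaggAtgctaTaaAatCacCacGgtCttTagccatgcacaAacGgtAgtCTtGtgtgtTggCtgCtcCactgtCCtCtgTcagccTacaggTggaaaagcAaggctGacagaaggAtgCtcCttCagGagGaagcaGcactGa

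The other paralog of the set, Rps4l, fell together with Rps4x. Rps4l, the transcribed pseudogene, lies on chromosome 6 (148354656 to 148355596), and its transcript is 79.8% identical to the Rps4x coding sequence, with none of its 640 windows of 150 bases found elsewhere. It had 38.8, 37.5 and 16.8 CPM in arsenite replicates 1, 2 and 3, against 81.3, 142 and 50.1 CPM in control replicates 1, 2 and 3. The groups did not overlap, although control replicate 3 was close to the higher arsenite libraries. Its log2 fold change was −1.55 ± 0.45 (SE, adjusted p by edgeR = 0.041). The call was lost in each fit that left out a library, at 0.0957, 0.0535 and 0.0978 without arsenite replicates 1, 2 and 3 and 0.0821, 0.147 and 0.0559 without control replicates 1, 2 and 3, and at 0.176 with the length and GC trend removed. As a share of Rps4l and Rps4x counts together Rps4l held 23.7 ± 6.88% with arsenite and 23.0 ± 11.9% in controls (SD, n = 3 each, exact two-sided permutation p = 0.9). Like Rpsa and Rps4x, it did not follow the common order of the libraries, being lowest in arsenite replicate 3 and highest in control replicate 2.

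**Figure D3:**
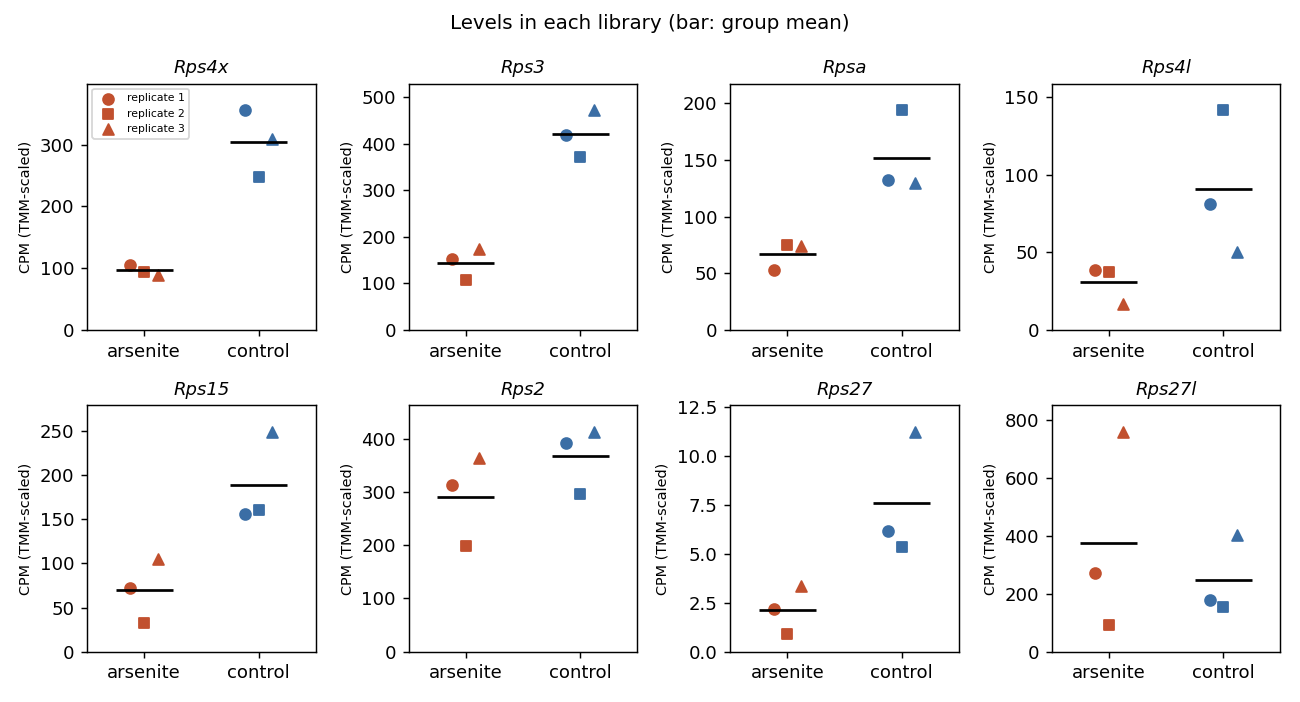
CPM (y axes, from 0) of 8 small subunit genes in arsenite and control libraries (x axes), with a symbol for each replicate number and a bar at the group mean. Rps4x, Rps3, Rpsa, Rps4l, Rps15 and Rps27 have no arsenite library as high as the lowest control, whereas the groups of Rps2 and Rps27l overlap.

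Copies elsewhere in the genome limit single values for many members. No window of 150 coding bases was shared with another annotated gene for 7 members, of which 3 fell, namely Rps3, Rps4l and Rps15 (median log2 fold change −1.28). For 8 members every window was shared, 0 of which fell (median −0.94). The other 19 shared some windows, and 5 of these fell (median −1.0). With the replicate block all of the first 7 but Rps21 and Rps27l passed (edgeR adjusted p = 0.0884 and 0.6 for these). Of the 8 all but Fau, Rps12, Rps27, Rps28 and Rps29 passed with it. Among all genes tested 7.26% fell, and 12.6% with the block. A difference between these small classes was not tested. Rps6 shared its 601 windows with 6 pseudogenes, and Rps2 shared 405 of 733 with 22. Across members the log2 fold change had a Spearman correlation of 0.305 with the share of windows held in common and of −0.432 with coding length (n = 34 genes from the same 6 libraries, given as a description). In the same-numbered pairs 1, 2 and 3 the correlation of the log2 ratio with coding length was −0.369, 0.461 and −0.436, so its sign was not the same in every pair.

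Levels of different members can be compared per length of coding sequence. In arsenite libraries Rps27l had the highest mean, 1466 ± 1355 CPM per kb. Rps26 had 650.3 ± 592 and Rps19 388 ± 234 (SD, n = 3 each), at ranks 3 and 8 of the 34 members. In controls Rps26 stood at 1184 ± 537 CPM per kb, Rps19 at 1071 ± 329 and Rps27l at 964 ± 537 (SD, n = 3 each), levels that differed from each other by less than their spread. Their ranks in controls were 2, 3 and 7. At the low end Rps27 had 8.41 ± 4.80 CPM per kb with arsenite and 29.7 ± 12.5 in controls, and Rps4l had 39.3 ± 15.7 and 115 ± 59.2 (SD, n = 3 each).

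Rps26, which contacts the mRNA near the exit channel, had 152, 68.0 and 459 CPM in arsenite replicates 1, 2 and 3, against 315, 294 and 627 CPM in control replicates 1, 2 and 3, with a log2 fold change of −0.86 ± 0.58 (SE, adjusted p by edgeR = 0.321, and 0.0271 with the block). Arsenite replicate 3 exceeded control replicates 1 and 2, so the groups overlapped.

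**Figure D4:**
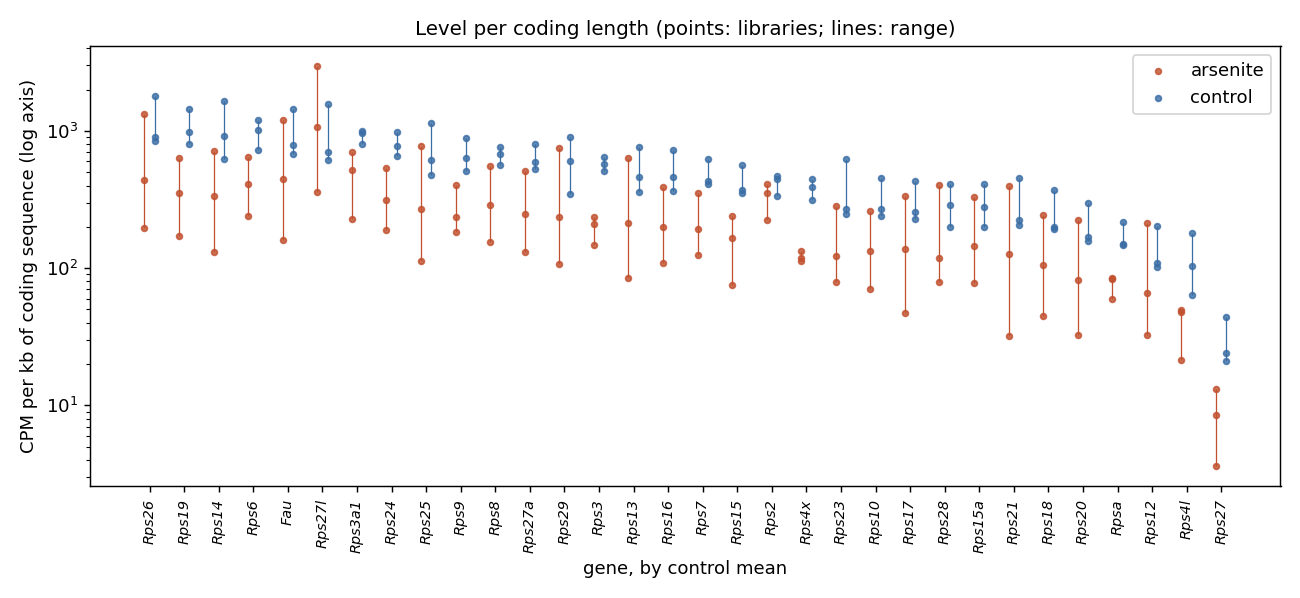
Level per kb of coding sequence (y axis, CPM per kb, log axis) of 32 of the 34 small subunit genes (x axis, ordered by the control mean), with points for libraries and lines for the range, arsenite left of control. Rps27 has the lowest control mean (29.7), and Rps27l has the highest arsenite mean (1466).

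Genes that work with the small subunit were described beside it by their counts and medians, with no test of a list. Of 53 large subunit genes 12 fell and 0 rose (22.6%, median −1.08), close to the 23.5% and −1.09 of the small subunit and against 7.26% lower and 9.43% higher among all genes. Rpl14 and Rpl5, whose proteins belong to the large subunit, fell by 2.30 ± 0.32 and 1.76 ± 0.27 log2 units (SE, adjusted p by edgeR = 0.00463 and 0.00509). Of 74 tested factors that assemble the small subunit 28 fell and 0 rose (37.8%, against the same 7.26% lower and 9.43% higher, median −0.97). Utp11 and Utp23, of the processome that builds the subunit in the nucleolus, fell by 1.89 ± 0.27 and 1.82 ± 0.28 (SE, adjusted p by edgeR = 0.00485 and 0.00551). The number of falls without control replicates 1, 2 and 3 was 6, 7 and 4 for large subunit genes and 9, 20 and 6 for assembly factors (3.05%, 3.57% and 1.41% of all genes). Without arsenite replicates 1, 2 and 3 it was 4, 9 and 31 for large subunit genes and 6, 35 and 18 for assembly factors (1.35%, 8.16% and 4.82% of all genes), so leaving out arsenite replicate 3 brought more calls for either subunit's proteins and fewer for the assembly factors.

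Of 39 tested genes for quality control of the subunit and for control of TOP mRNAs 6 fell and 1 rose (15.4% and 2.56%, against 7.26% lower and 9.43% higher among all genes, median −0.61). The share that rose was thus below that of all genes. With the replicate block 10 fell (12.6% of all genes). Without control replicates 1, 2 and 3 the falls numbered 3, 5 and 1 (3.05%, 3.57% and 1.41% of all genes), and without arsenite replicates 1, 2 and 3 they numbered 1, 6 and 3 (1.35%, 8.16% and 4.82%). Larp1, which binds the TOP tract and the cap of such mRNAs, had 16.3, 20.3 and 17.5 CPM in arsenite replicates 1, 2 and 3, against 83.1, 78.8 and 85.4 CPM in control replicates 1, 2 and 3. Its groups lay far apart with little spread, a fall of 2.19 ± 0.31 log2 units (SE, adjusted p by edgeR = 0.00463), called in all 15 alternative fits. Hbs1l, which with Pelota frees stalled ribosomes, was the 1 that rose, with 88.3, 77.3 and 59.4 CPM with arsenite and 25.8, 16.3 and 21.1 CPM in controls, a log2 fold change of 1.83 ± 0.34 (SE, adjusted p by edgeR = 0.00894). It was called in 14 of the 15 alternative fits, with 0.0539 as the highest adjusted p, without control replicate 3. Rack1, the remaining protein of the small subunit outside the symbol rule, had 62.2, 49.4 and 66.9 CPM with arsenite and 101, 93.0 and 124 CPM in controls. Its groups did not overlap, with a log2 fold change of −0.83 ± 0.29 and no call (SE, adjusted p by edgeR = 0.073), and 0.0398 with the replicate block.

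**Figure D5:**
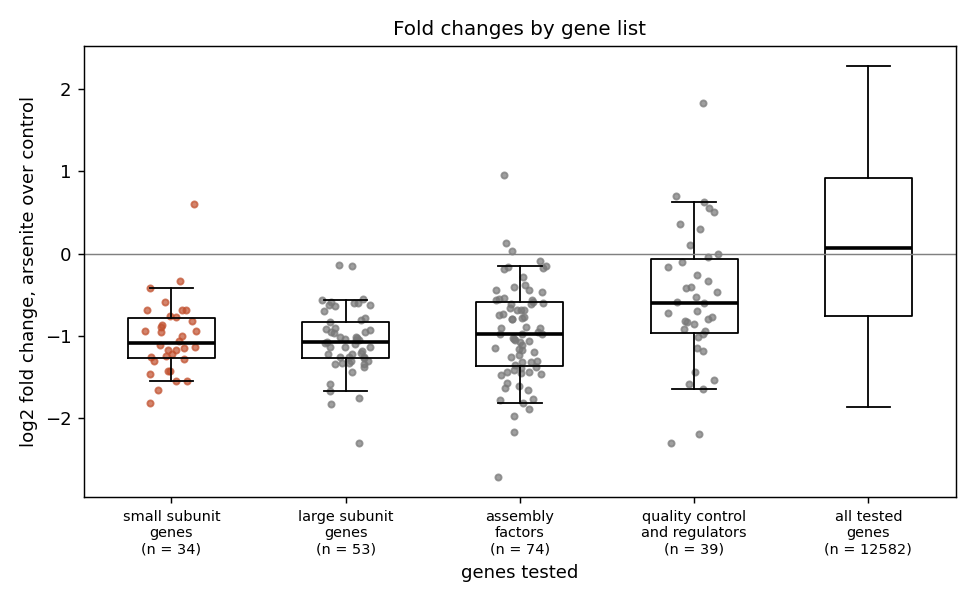
Log2 fold change of arsenite over control (y axis) for genes of each list and for all 12582 tested genes (x axis), with points for genes, boxes for the quartiles with a line at the median, and whiskers from the 5th to the 95th percentile. Small and large subunit genes have medians of −1.09 and −1.08, assembly factors −0.97, and all genes 0.07.

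Summed markers of the 2-cell stage, of the egg and of cumulus and granulosa cells were higher in every arsenite library than in any control. Sums for later cleavage stages and sperm overlapped. Library totals lay between 7758507 and 8519265 counts, of which the members held 18966 to 102647. The 8 markers of the 2-cell stage were all present, their levels summing to 1534 to 3566 CPM with arsenite and 908 to 993 CPM in controls. Of these 5 rose and 0 fell, against 9.43% higher and 7.26% lower among all genes. The 7 egg transcripts summed to 2199 to 3041 CPM with arsenite and 495 to 1204 CPM in controls (3 rose, 0 fell). Bmp15 was the largest part of that sum in every library (1028 to 2002 CPM with arsenite, 146 to 577 CPM in controls). Gdf9, Bmp15, Nlrp5 and Zar1 were higher with arsenite without overlap, and Oosp1 and Mos overlapped. Zp3 was lower without overlap (39.9 to 63.1 against 76.9 to 102 CPM), without a call. Of 10 markers of cumulus and granulosa cells 6 were in the table, summing to 11.5 to 15.7 CPM with arsenite and 2.29 to 6.83 CPM in controls (1 of 4 tested rose). Cyp11a1, at 0 in every control library, and Tnfaip6 were higher with arsenite without overlap. Cyp19a1, Star and Foxl2 overlapped, and Has2 was seen in control replicate 2 alone (0.335 CPM). No single value of these markers exceeded 5.85 CPM, where 3 counts are 0.335 to 0.438 CPM. Of 5 markers of later cleavage stages 4 were in the table, summing to 9.41 to 61.8 CPM with arsenite and 3.01 to 11.3 CPM in controls (0 called by edgeR). The highest sum held 42.9 CPM of Krt18 in arsenite replicate 2, against 9.16 CPM in control replicate 2. The 4 sperm markers, of which 0 were tested, summed to 0.114 to 2.77 CPM with arsenite and 0 to 0.732 CPM in controls. The part of these differences in the levels of the small subunit genes was not tested.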

How the data were processed

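Poly(A) RNA of 3 arsenite and 3 control libraries was measured. The deposited table gives un-normalized read counts, whole numbers, by gene symbol. The submitters' processing notes list the tools DESeq2 1.30.1, featureCounts 1.6.2, StringTie 2.1.4 and STAR, and the build mm10, with no roles. No source used here gives the annotation, the strand setting or the treatment of reads with several positions. The cDNA was amplified by PCR before library construction, per the labels' protocols, and no molecular identifiers are mentioned, so counting error is only part of the error. From the table, 11 rows whose symbol had become a date were left out.

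Arsenite was tested against control, with no covariate, by the quasi-likelihood F-test of edgeR 4.0.16 (R 4.3.3, TMM, filterByExpr, two-sided), and p-values were adjusted over 12582 genes (Benjamini-Hochberg, threshold 0.05). The common biological coefficient of variation was 0.495. SE is the log2 fold change divided by the root of F. Alternatives used limma 3.58.1 (voom) and DESeq2 1.42.0. No 2 libraries agreed within sampling noise (chi-square per degree of freedom at least 32.2).

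Same-numbered libraries deviated together (correlation across genes 0.189, 0.221 and 0.178 for numbers 1, 2 and 3), so the numbers were taken to pair them. Deviations were taken from the group means, so these correlations are not independent of each other. The pairing was chosen on the counts that the block fit then tested, and p-values with the block hold only if it is right. What same-numbered libraries share is not stated in the labels.

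The members, lists and tests were chosen with earlier results of these data known. Named were members past the threshold, the 3 with the highest and lowest fold changes, members whose level per length was among the 3 highest of either group (coding length replaced transcript length, since some annotated transcripts are far longer than the coding sequence), paralogs and ubiquitin fusions, and the 2 genes of each other list with the smallest p, plus Rack1. Others given by name serve to describe a group, and 2 members counted with the rest are not reported here by name. Coding sequences and transcript lengths came from GENCODE M21, positions and promoters from RefSeq, both on GRCm38.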

Additional observations from a re-analysis of the deposited data

How the results depend on the processing

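Over 15 alternative fits the median log2 fold change of the members stayed between −1.72 and −0.84 and the direction of each member was kept in all fits but 2: Rps2 was at 0.024 with the length and GC trend removed and the replicate block, and Rps27l at −0.44 without arsenite replicate 3, in a range of −0.44 to 1.05 with a library left out. No member was called higher in any fit. Of 510 comparisons of a member with an alternative fit, 399 kept the direction and the side of the threshold, 79 gained a call, 30 lost one and 2 turned.

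The number of small subunit genes that fell, 8 of 34, was 13 without a count filter, 15 with DESeq2, 13 with limma voom, 25 with the replicate block, 26 with the block and the length and GC trend removed, and 2 to 24 with a library left out. The 8 calls were all kept in the first 5 of these. All genes called lower were 7.26% in the fit with no covariate, 5.54% without a count filter, 10.3% with DESeq2 and 8.63% with limma voom. They were 12.6% with the block, 10.3% with the trend removed, 14.5% with both, and 1.35% to 8.16% with a library left out. The counts of every list here are to be read beside these shares. Large subunit genes that fell, 12, numbered 19 without a count filter, 23 with DESeq2, 19 with limma voom, 39 with the replicate block, 20 with the length and GC trend removed, 38 with both, and 4 to 31 with a library left out. Assembly factors that fell, 28, numbered 46 with the block and the trend removed and 6 to 35 with a library left out. Genes for quality control and TOP mRNAs that fell, 6, numbered 10 with the replicate block, 10 with the trend removed, 14 with both, and 1 to 6 with a library left out.

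Of all genes 914 were lower and 1187 higher. Lower calls numbered 1547 with DESeq2, 1586 with the replicate block, 1808 with the block and the trend removed, and 180 to 1072 with a library left out, where higher calls numbered 217 to 930. The block changed no other call named in the text beyond those given beside it. Fits without a library hold fewer samples, and a group keeps 2 libraries there. The difference in the members' share of counts, −0.55 percentage points, was −2.02 among genes with transcripts under 1500 bases, a smaller denominator. Both fits with the trend removed and the count among short transcripts were chosen after seeing the data. Rps27 is limited by depth, with 8 to 92 counts a library, while every other member had at least 71.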
